A study of Mus musculus with 4 samples.

Results

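The inflammatory CC chemokine genes Ccl2, Ccl3, Ccl4, Ccl5, Ccl6, Ccl7, Ccl8 and Ccl9 and the receptor gene Ccr2 were followed in white adipose tissue of mice. They were taken by their symbols in the platform's probe annotation, which gave 12 probes for these 8 ligand genes and 1 receptor gene, 9 out of 19057 named genes. All the mice were C57BL/6 females aged 9 months, and the labels name no allele or drug. The high fat arrays F0, F1 and F2 are 3 successive generations of animals on a high fat diet (60% of kcal from fat), and the labels state 9 months of feeding for every array. The animals of the chow array ate normal chow and have no generation label. Each group was 1 bead array. The F0, F1 and F2 arrays each held RNA mixed from 4 samples and the chow array RNA mixed from 3 samples, and whether each sample was another animal is not stated.

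CC chemokines are small secreted proteins that carry a pair of adjacent cysteines near their amino terminus and draw leukocytes along a gradient by way of G protein-coupled receptors. Ccl2 and Ccl7 act through Ccr2 on inflammatory monocytes, Ccl3, Ccl4 and Ccl5 draw macrophages and T cells, and Ccl6 and Ccl9 act through Ccr1. In obese adipose tissue the Ccl2 and Ccr2 pair is known for bringing in monocytes that become macrophages. All 8 ligand genes lie on mouse chromosome 11. In the GRCm38.p6 annotation they stand in the order Ccl2, Ccl7, Ccl8 in one cluster, with Ccl11 and Ccl12 between Ccl7 and Ccl8, and Ccl5, Ccl9, Ccl6, Ccl3, Ccl4 in another. Ccr2 lies on chromosome 9.

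Signals are given as log2 of background-corrected, quantile-normalized intensity. A probe counted as detected where its deposited detection p-value was below 0.01, and a gene with several probes took the value of its brightest one. Since no group has a replicate array, differences between arrays are described by their size, with 2-fold as the mark, and precision is bounded by having so few arrays. An array that did not detect a gene enters these counts at its measured signal. As a gauge of technical error, probes of 1 gene scattered around their own mean by an SD of 0.31 on F0, 0.29 on F1 and 0.31 on F2 (log2 difference from chow, 3069 genes with several probes). This gauge holds no difference between animals or RNA pools. Detected probes made up 37.8 to 40.9% of each array, and 11384 genes were detected on at least 1 array, all 9 genes followed here among them. All 12 adipocyte markers that could be measured were detected on every array, with adiponectin (Adipoq), named as the defining hormone of fat cells, at a log2 signal of 13.64 on chow. Markers of other tissues differed between the arrays. Of 7 hepatocyte markers 1 was at least 2-fold higher than chow on F0, 6 on F1 and 7 on F2, and all 6 mesothelial markers were lower on each high fat array. Glycam1, a glycoprotein of lymph node vessels, was at least 56.8-fold higher than chow on F2. It had the widest F2 difference of the 4 lymph node stroma markers measured. Of these, 2 passed the 2-fold mark upward on F2 and 1, Ccl21a, passed it downward. Their summed linear signal was 234 on F0, 285 on F1 and 3926 on F2, against 3681 on chow. Ccl21a made up most of the chow sum, with a log2 signal of 11.74 there and 10.44 on F2. Glycam1 was not detected on chow and had 10.65 on F2, and Ccl19 had 5.96 on chow and 9.62 on F2. The like sums of chow and F2 thus rest on different genes. The part of such tissue in the chemokine signals was not tested. White adipose tissue holds many cell types, and in such bulk RNA more cells of a type and more RNA per cell cannot be told apart.

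Of the 9 genes, 7 stood at or above 2-fold over chow in all 3 generations, namely Ccl2, Ccl3, Ccl4, Ccl5, Ccl6, Ccl7 and Ccl9. Over all 11384 genes, 4.07% did so. The same 7 genes make up each single count: 7 of 9 genes on the F0 array, where 7.06% of all tested genes were at least 2-fold higher, 7 of 9 on the F1 array (7.81% of all tested genes) and 7 of 8 on the F2 array (9.60% of all tested genes), where Ccr2 was not tested because neither array detected it. Without background correction the count on F2 was 6, since Ccl2 differed there by 0.99. At least 2-fold lower were 0 of them on F0, against 7.02% of all tested genes, 0 on F1 (6.68%) and 0 on F2 (8.47%). Their median log2 difference from chow was 1.83 on the F0 array, 1.93 on F1 and 2.07 on F2 (all 9 genes, Ccr2 at its measured signal), against -0.02, -0.04 and -0.10 over all genes tested. These 3 comparisons share the 1 chow array. Ccl8 and Ccr2 stood apart from the other 7.

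**Figure D1:**
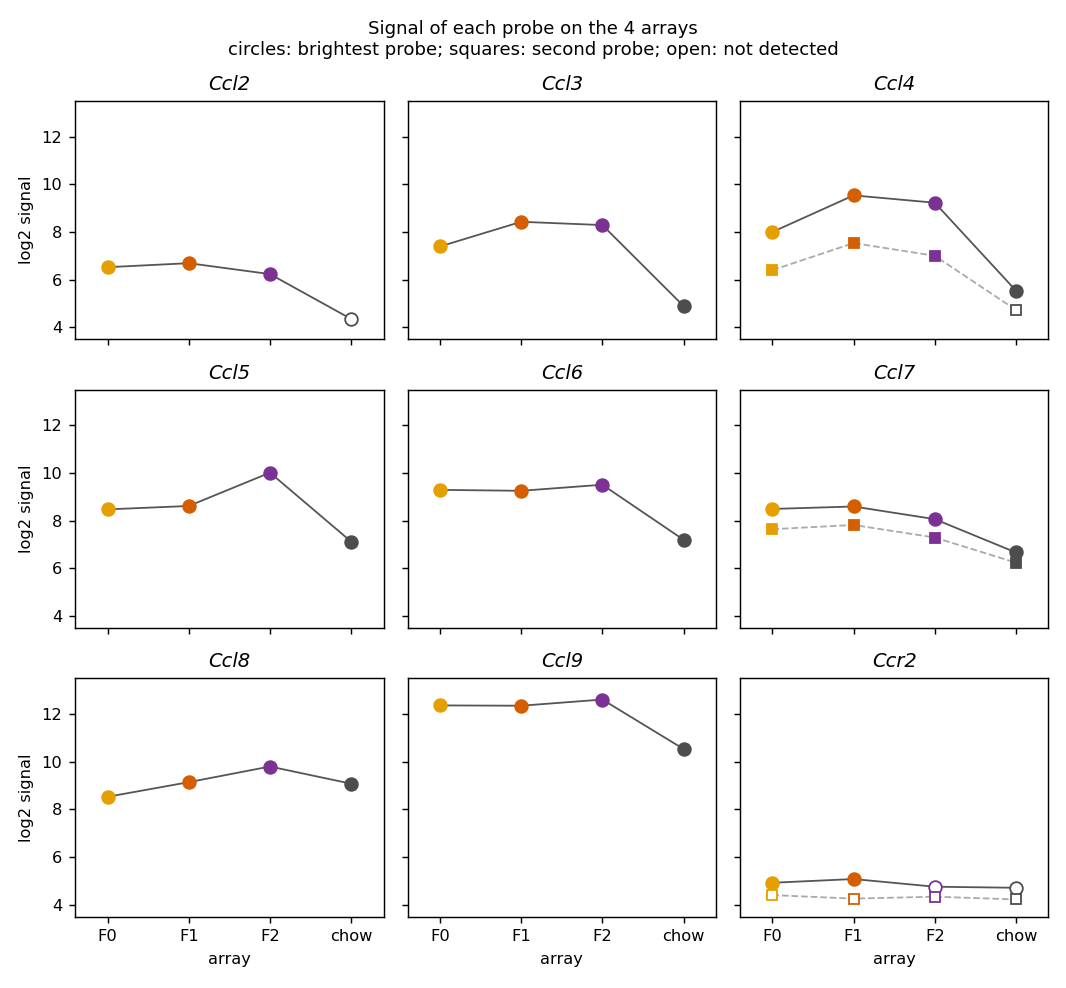
The log2 signal of every probe of the 9 genes (vertical axis) on the F0, F1, F2 and chow arrays (horizontal axis, 1 array each). Circles are the brightest probe of a gene, squares its second probe, and open symbols were not detected. Ccl9 lies at 12.36, 12.35 and 12.61 on the high fat arrays and 10.54 on chow, and Ccr2 stays near 5 throughout.

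Ccl2, the monocyte chemoattractant that binds Ccr2, was detected on the 3 high fat arrays and not on chow. Its deposited intensity was 129 on the F0 array, 140 on F1 and 119 on F2, against 56.7 on chow, where the detection p-value was 0.366. On the log2 scale the signals were 6.52, 6.69 and 6.23 in the order F0, F1, F2, against 4.35 on chow. On this corrected scale, with the lowest signal that the chow array detected as its ceiling there, Ccl2 was at least 3.25-fold higher on F0, at least 3.65-fold higher on F1 and at least 2.66-fold higher on F2. Without background correction the log2 differences were 1.19, 1.30 and 0.99, so these and all later folds given as "at least" are bounds for the corrected signal alone. The 3 generations lay within 0.46 of each other, with F2 lowest.

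Ccl7, the neighbour of Ccl2 and a second Ccr2 ligand, had the same order of generations as Ccl2, with F1 highest and F2 lowest. Its log2 signals were 8.49 on F0, 8.60 on F1 and 8.07 on F2, against 6.67 on chow. It was thus 3.55-fold, 3.81-fold and 2.64-fold higher than on chow. The second Ccl7 probe gave log2 signals of 7.64, 7.82 and 7.30, against 6.24 on chow, so that both probes placed F1 above F0 and F2. F1 lay 0.10 above F0, less than the technical spread between probes in that comparison (0.16), and F2 lay 0.53 below F1.

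Ccl8 is the remaining member of this cluster and in mice signals through Ccr8. It was detected on every array, and it was the 1 ligand that was not at least 2-fold apart from chow in any generation. Its log2 signal was 8.53 on F0, 9.15 on F1 and 9.80 on F2, against 9.08 on chow. The F0 array thus lay 0.55 below chow, the F1 array 0.06 above it and the F2 array 0.72 above it. Between generations Ccl8 was 2.41-fold higher on F2 than on F0.

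The summed signal of the mast cell markers had the array order of Ccl8, F0 lowest, then chow, F1 and F2, as had 6 of the 8 markers singly. This match was looked for after the values were seen, and the share of all genes in that order was not counted. The order was not particular to mast cell markers. Myd88 of the NF-kappaB list, Grk6 of the signalling list, Zap70 of the T cell list, Mzb1 of the B cell list and Clec9a of the dendritic cell list had it too. These were also named after their values were seen. On F0 4 of 8 measured markers were 2-fold lower or more and 0 higher, on F1 0 lay past that mark, and on F2 7 were higher and 0 lower, with median log2 differences from chow of -1.13, 0.11 and 1.74. Their summed linear signal was 863 on F0, 2136 on F1 and 7155 on F2, against 1854 on chow. Cpa3, the mast cell carboxypeptidase, was 2.83-fold lower than chow on F0 and 4.19-fold higher on F2, and Fcer1a, a chain of the IgE receptor, was 8.37-fold higher on F2. The part of mast cell content in the Ccl8 signal was not tested.

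Ccl3 and Ccl4, macrophage inflammatory proteins whose genes are next to each other, had the widest differences from chow of the 9 genes on the corrected scale. Ccl3 had log2 signals of 7.39 on F0, 8.43 on F1 and 8.29 on F2, against 4.89 on chow. Its folds over chow were 5.65, 11.6 and 10.5, and its chow signal, with a detection p-value of 0.00534, was close to the lowest detected signal of that array (4.82). Ccl4 had log2 signals of 8.0 on F0, 9.53 on F1 and 9.23 on F2, against 5.54 on chow, or 5.51-fold, 15.96-fold and 12.9-fold higher. In both genes F1 and F2 lay above F0, and all 3 lay above chow. Without background correction the log2 differences were 1.56, 2.44 and 2.32 for Ccl3 and 1.76, 3.16 and 2.87 for Ccl4, and then Ccl6 (1.83) and Ccl9 (1.80) lay above both on F0 and Ccl5 (2.57) above Ccl3 on F2.

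Of the genes tested, 21 had a larger difference than Ccl4 for F1 against chow, and 29 had a larger one than Ccl3. The second Ccl4 probe, not detected on chow, gave log2 signals of 6.40, 7.53 and 7.0, against 4.73 on chow, in the same order of generations. Between generations Ccl4 was 2.90-fold and Ccl3 2.05-fold higher on F1 than on F0. They were the 2 of the 9 genes past 2-fold in that comparison, where 0.922% of all tested genes were. Ccl3 passed narrowly, at 1.03 on the log2 scale. Without background correction it differed from chow by 1.56 on F0 and 2.44 on F1, which leaves it under the 2-fold mark between these arrays. In the other direction 0 of the 9 passed that mark, against 0.0776% of all tested genes.

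Ccl5, which attracts T cells and natural killer cells as well as monocytes, differed most from chow on the F2 array. Its log2 signals were 8.48 on F0, 8.62 on F1 and 10.01 on F2, against 7.12 on chow. It was 2.56-fold higher than chow on F0, 2.82-fold on F1 and 7.43-fold on F2. F0 and F1 differed by 0.14, less than the technical spread between probes (0.16). On F2 it was 2.63-fold higher than on F1, the 1 gene of the 9 past the 2-fold mark, as were 3.30% of all tested genes, while 0 were 2-fold lower (0.853%).

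Lymphocyte markers also stood higher on F2. Of 10 T cell markers 0 stood 2-fold or more above chow on F0, 0 on F1 and 7 on F2, and of 5 markers of natural killer and cytotoxic cells 2, 1 and 4 were. The summed linear signal of the T cell list was 2657 on F0, 2670 on F1 and 4365 on F2, against 2002 on chow, and that of the cytotoxic list 874, 768 and 1376, against 438 on chow. Cd8b1, named after its values were seen, made up most of the T cell sum on F0, F1 and chow, and without it the sum was 513 on F0, 489.7 on F1 and 2916 on F2, against 409 on chow. Cd3e, a chain of the T cell receptor complex, was 10.8-fold higher than chow on F2, and Nkg7, a granule protein of cytotoxic cells, 7.98-fold. Among the T cell markers Cd8a and Cd5 were detected on no array, and Cd4 and Cd28 on F2 alone. The part of lymphocyte content in the Ccl5 signal was not tested.

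Ccl6 and Ccl9, neighbouring rodent genes whose products act through Ccr1, kept a nearly level raised signal over the generations. Ccl6 had log2 signals of 9.29 on F0, 9.25 on F1 and 9.51 on F2, against 7.20 on chow. It was 4.27-fold, 4.15-fold and 4.95-fold higher than on chow. Ccl9 had deposited intensities of 5369 on F0, 5354 on F1 and 6268 on F2, against 1518 on chow, and folds of 3.55, 3.52 and 4.21. The 3 high fat arrays spanned 0.25 for Ccl6 and 0.26 for Ccl9, and both were highest on F2.

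The upstream sequences of 5 of the 9 genes were matched in a RefSeq promoter table (GRCm38.p6), those of Ccl3, Ccl6, Ccl8, Ccl9 and Ccr2. The 250 bases before the start of Ccl6 and of Ccl9 are shown because these neighbours kept together over all 4 arrays, and those of Ccl3 and Ccl8 because they mark the widest and the smallest difference from chow among the ligands with a matched sequence. Each is written 5′ to 3′ on the strand of its gene. Capitals mark the letters TATAAA (the TATA box) and GGAAGT (a longer form of GGAA, the core bound by ETS factors such as PU.1). Both were searched on both strands, so that TTTATA and ACTTCC are the same motifs on the other strand. GGAAGT was chosen after the sequences were seen.
Ccl6, chr11:83593088-83593337, minus strand: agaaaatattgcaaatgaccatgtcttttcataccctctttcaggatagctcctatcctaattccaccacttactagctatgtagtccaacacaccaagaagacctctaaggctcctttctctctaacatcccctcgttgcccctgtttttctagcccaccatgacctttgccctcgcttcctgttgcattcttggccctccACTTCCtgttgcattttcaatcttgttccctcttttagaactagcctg
Ccl9, chr11:83578637-83578886, minus strand: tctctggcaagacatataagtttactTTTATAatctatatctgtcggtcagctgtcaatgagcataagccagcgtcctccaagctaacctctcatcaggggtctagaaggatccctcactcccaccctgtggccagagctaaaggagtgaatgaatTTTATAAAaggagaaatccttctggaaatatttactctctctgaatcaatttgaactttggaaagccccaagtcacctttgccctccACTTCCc
Ccl3, chr11:83649379-83649628, minus strand: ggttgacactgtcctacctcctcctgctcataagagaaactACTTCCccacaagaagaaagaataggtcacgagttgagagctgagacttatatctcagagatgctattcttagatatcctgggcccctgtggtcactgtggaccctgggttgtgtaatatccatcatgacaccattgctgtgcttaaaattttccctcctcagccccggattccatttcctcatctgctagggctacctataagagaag
Ccl8, chr11:82114935-82115184, plus strand: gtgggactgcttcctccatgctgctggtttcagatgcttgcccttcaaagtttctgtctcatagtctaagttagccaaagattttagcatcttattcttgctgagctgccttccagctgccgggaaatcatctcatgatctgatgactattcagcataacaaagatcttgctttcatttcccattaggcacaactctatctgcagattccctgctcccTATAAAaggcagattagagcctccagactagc

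The letters GGAAGT were in the windows of Ccl6, Ccl9 and Ccl3 and not in those of Ccl8 and Ccr2. Of 32851 promoter windows of this length 19.7% hold them. The shorter ETS core GGAA was not counted, and it stands in the windows of Ccl8 and Ccr2 too. An ETS core thus does not set these genes apart. The GGAAGT letters ended 43 bases before the start in Ccl6, 2 bases before it in Ccl9 and 204 bases before it in Ccl3, on the opposite strand in each. A TATA box was in the windows of Ccl8 and Ccl9, as in 12.4% of all windows, and in Ccl8 it ended 27 bases before the start. In Ccl9 the 2 matches nearest the start overlapped each other, 1 on each strand. The AP-1 letters TGANTCA were in Ccl9 alone of the 5 genes (6.75% of all windows), the STAT letters TTCNNNGAA in none of the 5 (7.02%) and the NF-kappaB consensus in Ccl9 alone (3.90%), with no overlap among these. Over the whole table windows, which run on for 50 bases past the start, the best local alignment among the 10 pairs of matched genes was that of Ccl6 with Ccl9, with 59 identical bases over 74 aligned positions (79.7%). The GGAAGT letters of Ccl6 and Ccl9 both lie inside this alike stretch, so they do not count as separate occurrences. A link of any of these motifs to the signals was not tested.

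Ccr2, the receptor of Ccl2 and Ccl7 and the 1 receptor of the set, stayed at the edge of detection. Its brighter probe had deposited intensities of 73.4 on F0, 74.3 on F1 and 67.5 on F2, against 65.9 on chow, with detection p-values of 0.00641, 0.00214, 0.0118 and 0.0235. It thus counted as detected on F0 and F1 and not on F2 or chow. The log2 signals were 4.93, 5.08 and 4.76, against 4.72 on chow. The second Ccr2 probe was detected on no array. A change of this receptor could not be seen at this signal, which says nothing of whether one took place.

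**Figure D2:**
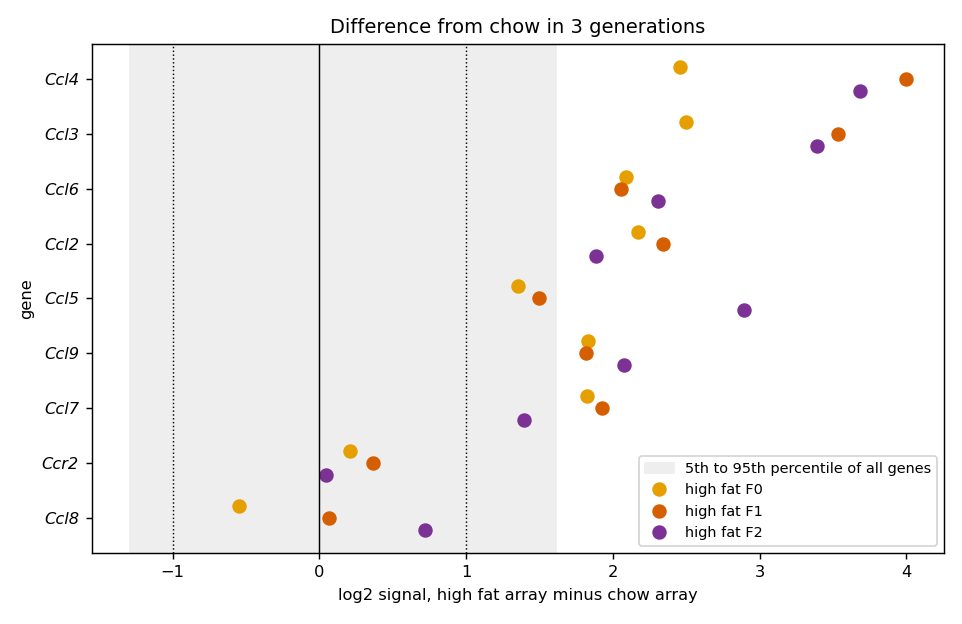
The log2 signal on each high fat array minus that on the chow array (horizontal axis) for the 9 genes (vertical axis, ordered by their mean). The grey band spans the lowest 5th to the highest 95th percentile of all tested genes over the 3 comparisons, and dotted lines mark 2-fold. Ccl3 and Ccl4 reach 3.53 and 4.00 on F1, while Ccr2 and Ccl8 lie inside the dotted lines.

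A fit across genes could be made by taking the 3 high fat arrays as samples of the diet against the 1 chow array, with 2 residual degrees of freedom. Nothing in the labels makes the generations replicates, so the error of this fit holds the differences between them, while the chow side adds none. By limma with Benjamini-Hochberg adjustment over all 11384 genes, 6 of the 9 genes rose and 0 fell, where 2.90% of all genes rose and 3.41% fell. These were 330 and 388 genes, and 144 and 790 with the authors' value table. Each of the 6 had all 3 high fat arrays above chow. Ccl2 was not detected on chow, so the size of its estimate depends on the signal taken there. It was 2.13 as reported, 1.66 with undetected signals at the lowest detected signal and 1.16 without background correction (log2). Ccl6 rose by 2.15 ± 0.19 (log2, limma's SE, adjusted p = 0.0146) and Ccl9 by 1.91 ± 0.18 (limma, adjusted p = 0.0147). Ccl2 rose by 2.13 ± 0.28 (limma, adjusted p = 0.0229), Ccl3 by 3.14 ± 0.46 (limma, adjusted p = 0.0295) and Ccl7 by 1.72 ± 0.28 (limma, adjusted p = 0.0353). Ccl4, with the largest estimate, rose by 3.38 ± 0.62 (limma, adjusted p = 0.0478), and its call was kept under 5 of 12 other settings. Ccl5 had 1.91 ± 0.65 (limma, adjusted p = 0.156), Ccr2 0.21 ± 0.23 (adjusted p = 0.622) and Ccl8 0.08 ± 0.49 (adjusted p = 0.940), none past the threshold.

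These calls rest on the spread among 3 arrays. Without the F1 array 0 of the 9 genes and 1 of all genes passed in limma, though 7 of the 9 had an unadjusted p below 0.05. Without the F0 array, and likewise without the F2 array, 7 of the 9 passed, Ccl5 among them (limma, adjusted p = 0.0367 without F0 and 0.00144 without F2, within a range of 0.00144 to 0.311 over 12 alternatives). With the authors' value table in place of the corrected signals 3 of the 9 passed.

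The generations were also set against each other directly. For F2 against F0, 3 of 9 were at least 2-fold higher, where 4.87% of all tested genes were, and 0 lower (2.66%). The 3 were Ccl5 at 2.91-fold, Ccl8 at 2.41-fold and Ccl4 at 2.34-fold. For Ccl4 this held for the brighter probe alone. Its second probe differed from chow by 1.67 on F0 and 2.27 on F2 (log2), which leaves it under the 2-fold mark between these arrays. The count was 2 with the mean of a gene's probes, and 4 with median scaling and with the authors' value table. Ccl3 lay just under that mark at 1.86-fold. Ccl2 and Ccl7 were 0.29 and 0.43 lower on F2 than on F0. Ccl6 and Ccl9 were 0.22 and 0.25 higher there, where the technical spread between probes was 0.24.

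Likeness was measured as the Euclidean distance between the 3 log2 differences from chow of a pair of genes, a description over 4 arrays that all pairs share. Among the 36 pairs of the 9 genes, Ccl6 and Ccl9 were nearest (0.43), followed by Ccl2 and Ccl6 (0.52) and by Ccl3 and Ccl4 (0.55). Ccl2 and Ccl7 lay at 0.72, while Ccl8, in the same gene cluster as both, lay at 3.73 from Ccl2 and 3.09 from Ccl7. Of 8997 other genes detected on all 4 arrays, 23 lay nearer to Ccl6 than Ccl9 did and 12 nearer to Ccl3 than Ccl4 did. Another 13 lay nearer to Ccl2 than Ccl6 did and 50 nearer to Ccl2 than Ccl7 did, with Ccl2 at its undetected chow signal. Among these 8997 genes, the 5 nearest to the medians of the 9 were Adssl1 (0.05), Tpcn2 (0.14), Csf2ra (0.15), Tm6sf1 (0.21) and Gpr137b-ps (0.21). For single genes, looked up after their values were seen, the nearest was Fam20c to Ccl2 (0.05), Zranb3 to Ccl3 (0.12), Ms4a7 to Ccl4 (0.52), Cxcr4 to Ccl5 (0.04) and Gng2 to Ccl6 (0.11). It was Serpina3n to Ccl7 (0.16), Fchsd2 to Ccl8 (0.19), Csf2ra to Ccl9 (0.12) and Rdh5 to Ccr2 (0.02).

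**Figure D3:**
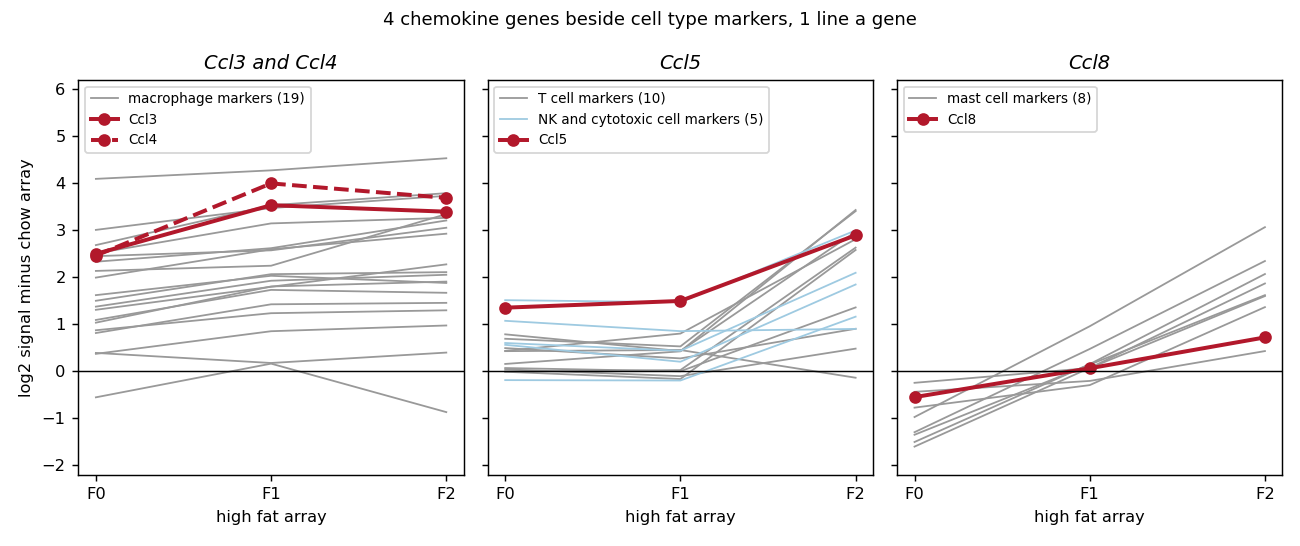
The log2 signal minus the chow array (vertical axis) on the F0, F1 and F2 arrays (horizontal axis) for Ccl3 and Ccl4 beside 19 macrophage markers, Ccl5 beside 10 T cell and 5 cytotoxic cell markers, and Ccl8 beside 8 mast cell markers, with 1 line a gene. Ccl5 reaches 2.89 on F2, where most lymphocyte markers also stand high, and Ccl8 runs upward from -0.55 to 0.72 as the mast cell lines do. The match of mast cell markers to Ccl8 was looked for after the values were seen.

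Macrophage markers stood beside most of the ligands. On F0 14 of 19 measured markers stood 2-fold or more above chow, on F1 16 and on F2 16, and 0 below it by as much, with median log2 differences of 1.5, 2.03 and 2.11. Their summed linear signal was 36256 on F0, 48607 on F1 and 57623 on F2, against 9424 on chow. Gpnmb, a glycoprotein of lipid-laden macrophages, differed from chow by 4.09, 4.27 and 4.53, and Tyrobp, a myeloid adaptor, by 3.01, 3.47 and 3.73. In the pooled fit 10 of the 19 rose (limma), among them Gpnmb by 4.30 ± 0.21 (limma, adjusted p = 0.0129). Monocyte markers, a list that holds Ccr2 itself, had medians of 0.21, 0.37 and 0.57, with S100a4, a calcium-binding protein of motile cells, at 2.73-fold, 2.65-fold and 2.97-fold over chow, and F13a1, a clotting factor subunit, at -0.57, -0.87 and -0.78 on the log2 scale. The part of macrophage content in the chemokine signals was not tested.

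Other inflammatory CC chemokines had median differences from chow of 0.10 on F0, -0.29 on F1 and -0.42 on F2. Of 8 listed, Ccl11, Ccl12, Ccl17 and Ccl24 were detected on at least 1 array, and Ccl1, Ccl20, Ccl22 and Ccl26 on none. Ccl11, the eosinophil attractant eotaxin, was 2.15-fold higher than chow on F0 and differed by 0.84 on F1 and 0.08 on F2. Ccl12, which lies between Ccl11 and Ccl8 on the chromosome and acts on Ccr2, was 2.61-fold lower than chow on F0 and differed by -0.52 on F1 and -0.58 on F2. Ccl24, a second eotaxin, was at least 2.54-fold lower on F2, where it was not detected. In the pooled fit 0 of these 4 genes passed (limma), with Ccl12 at -0.83 ± 0.41 (limma, adjusted p = 0.294) and Ccl11 at 0.68 ± 0.42 (limma, adjusted p = 0.385).

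Homeostatic CC chemokines, which guide lymphocytes in lymphoid organs and skin, were 2-fold lower or more in 3 of 5 genes on F0, 2 on F1 and 2 on F2, and higher in 0, 0 and 1. The higher one was Ccl19, a ligand of Ccr7, at 12.6-fold on F2. Ccl21a and Ccl21c, near-identical genes whose probes may share transcripts, differed from chow by -6.34 and -6.25 on F0, -5.48 and -5.24 on F1, and -1.30 and -1.18 on F2, values that are uncertain for either gene alone. Ccl27a, a skin chemokine, was 2.02-fold lower than chow on F0 and differed by -0.99 on F1 and -0.90 on F2.

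Of the other CC receptors measured, Ccr6 and Ccr7 were detected on at least 1 array. Ccr1, the receptor of Ccl6 and Ccl9, Ccr8, the receptor of Ccl8 in mice, and Ccr3, Ccr4, Ccr9, Ccr10 and Ccr1l1 were detected on no array. Ccr6, found on B cells and some T cells, was at least 15.3-fold higher than chow on F2, against at least 1.13-fold on F0 and 1.17-fold on F1. Ccr7, a lymphocyte and dendritic cell receptor, was detected on F2 alone. B cell markers moved with these receptors: of 7 measured, 0 were at least 2-fold higher on F0, 1 on F1 and 7 on F2, with a summed linear signal of 489, 489 and 7970, against 400.2 on chow. The part of B cell content in these receptor signals was not tested.

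Atypical receptors, most of which take up chemokines without G protein signalling, were 2-fold apart from chow in 0 of 5 genes on each array. Ackr2, which clears inflammatory CC chemokines, differed by -0.48 on F0, -0.37 on F1 and -0.34 on F2, and Ccrl2 by 0.66, 0.42 and 0.85. In the pooled fit 0 of these 5 genes passed (limma), with Ccrl2 at 0.64 ± 0.27 (limma, adjusted p = 0.226).

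Among 11 measured CXC, XC and CX3C chemokines 2 stood 2-fold or more above chow on F0, 2 on F1 and 0 on F2, and 1, 0 and 2 lower. Cxcl1, a neutrophil attractant, was 3.04-fold higher on F0, 2.31-fold on F1 and 1.96-fold on F2. Cxcl9, an interferon-induced T cell attractant, was 2.22-fold higher on F0 and differed by 0.74 on F1 and 0.92 on F2. Cxcl12, a stromal chemokine, was 2.84-fold lower on F2. Its receptor gene Cxcr4 was 2.58-fold higher on F0, 2.75-fold on F1 and 7.46-fold on F2. Of the 5 measured CXC, XC and CX3C receptors, 4 were at least 2-fold higher on F2, among them Cxcr3, the receptor of Cxcl9, at 6.01-fold and Cxcr5, a B cell receptor of Cxcl13, at least 7.03-fold.

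Genes that carry the signal inside the cell after a chemokine binds were measured in 19 cases, of which 7 stood 2-fold or more above chow on F0, 7 on F1 and 11 on F2. As far below it were 1 on F0 (Rgs2, another regulator of G protein signals, at -1.08, named after its value was seen), 0 on F1 and 0 on F2. Rgs2 was not detected on F0, and as a bound it was at least 1.66-fold lower there, which is under the 2-fold mark. In the pooled fit 3 rose and 0 fell (limma). These were Rgs1, Was and Gng2, the last named after its value was seen. Rgs1, which shortens G protein signals, rose by 4.09 ± 0.28 (limma, adjusted p = 0.0146), Gng2, a G protein gamma subunit, by 2.10 ± 0.22 (limma, adjusted p = 0.0178) and Was, which drives actin branching in blood cells, by 2.18 ± 0.38 (limma, adjusted p = 0.0419). Rac2, a leukocyte GTPase of cell movement, was 2.72-fold higher than chow on F0, 3.58-fold on F1 and 9.69-fold on F2 (limma, pooled adjusted p = 0.155).

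NF-kappaB genes and their inducers, which act upstream of many inflammatory chemokines, had medians of 0.16 on F0, 0.19 on F1 and 0.45 on F2. Of 18 measured, 1 was at least 2-fold higher on F0, 1 on F1 and 6 on F2. Tnfaip3, an inhibitor of the pathway that NF-kappaB itself induces, differed by 1.18 on F0, 0.86 on F1 and 1.31 on F2. Nfkbie, another inhibitor, differed by 0.23, 0.09 and 1.23, and Tlr2, a receptor for bacterial lipoproteins, by 0.03, 0.59 and 1.15. In the pooled fit 0 of the 18 passed (limma), with Tnfrsf1b, a TNF receptor, at 1.09 ± 0.25 (limma, adjusted p = 0.0756).

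**Figure D4:**
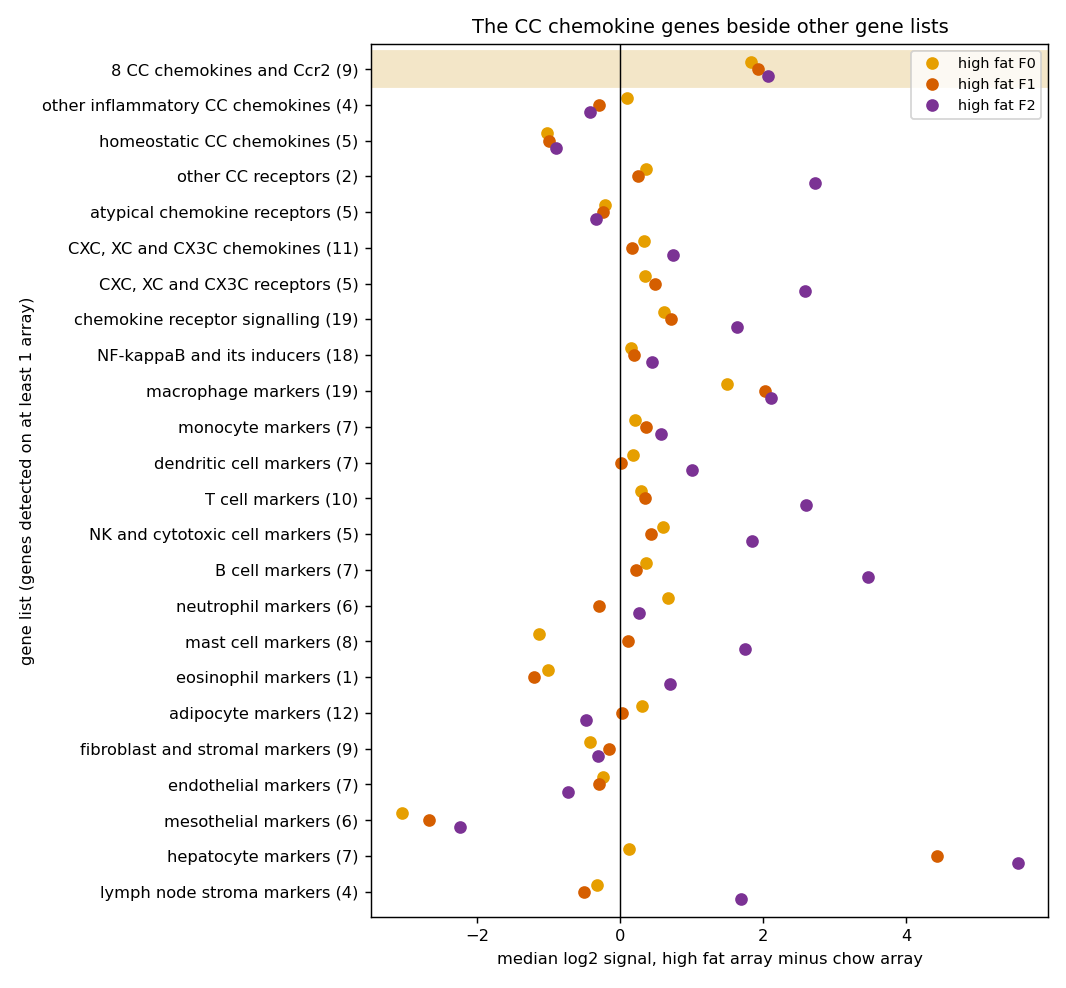
The median log2 signal of each gene list on the high fat arrays minus the chow array (horizontal axis), with 1 point for each generation and, in brackets, the number of genes detected on at least 1 array (vertical axis). The row of the 8 CC chemokines and Ccr2 lies at 1.83, 1.93 and 2.07 and that of the macrophage markers at 1.5, 2.03 and 2.11.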

How the data were processed

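Biotinylated cRNA was made from total RNA of white adipose tissue, per the labels' protocols, and read on 4 Illumina bead arrays. The submitters' processing notes name GenomeStudio 2010.2, and no genome build is given in the sources used here. The deposited table holds an intensity per probe and array on a linear scale, with the same mean on each array, and a deposited detection p-value that moves in steps of 1 in 936. The authors' value table holds a background-subtracted intensity. Here background was corrected with limma 3.58.1 in R 4.3.3 (nec, offset 16), followed by quantile normalization and log2. The platform annotation gives 1 symbol to 34885 of 45281 probes, several to 18 and none to 10378, and 34807 symbols were matched by gene ID. The pooled fit was two-sided (limma, lmFit, then eBayes with trend), with Benjamini-Hochberg adjustment and a threshold of 0.05. On simulated data for this comparison (11384 genes, SD 0.15) it recovered 100 of 100 genes changed by 2 and 100 of 100 changed by 3 (log2), with 8 unchanged genes called. Every simulated gene had that same SD on each array and no differences between generations. The simulation thus checks that the code runs and does not measure the power or error of the fit on these data. A fold "at least" divides the brighter signal by the dim array's lowest detected one, or by the dim signal itself where that is higher. From each list up to 4 genes (3 for cell markers) with the largest absolute difference of F2 from chow could be named, together with the 5 genes nearest to the medians of the 9. Others are said to be chosen after their values were seen, or are named as not detected. The 9 genes, the lists and the rules were chosen with earlier results of these data known. Columns of per-sample values left unused numbered 0. The value table follows the deposited intensity in a straight line, is neither log-scaled nor centred, has 25.8 to 27.8% of its values below 0 and a median of 5.69 on F0, 5.60 on F1, 6.24 on F2 and 6.17 on chow. How the arrays were scaled is not given in the sources used here.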

Additional observations from a re-analysis of the deposited data

Results flagged for a closer look

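Ccl8 was 0.55 below chow on the F0 array and 0.72 above it on the F2 array, so that the differences of these arrays from chow had opposite signs and lay 1.27 apart on the log2 scale (F2 minus F0). Each generation is 1 array and the difference was not tested. The mast cell markers, matched to it after the values were seen, had median differences from chow of 1.74 on F2 and -1.13 on F0. Their part was not tested.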

How the results depend on the processing

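The counts of the 9 chemokine and receptor genes at least 2-fold apart stayed within 1.5 times of those reported under all 28 alternatives: no background correction, offset 50, median scaling, the authors' value table, the mean of a gene's probes, detection p below 0.05 and a 1.5-fold mark, for each of F0, F1 and F2 against chow and F2 against F0. Against chow the count was 7 throughout, save for F2, with 6 without background correction and 8 at the 1.5-fold mark. A count of 7 out of 9 genes cannot rise by 1.5 times, so for the comparisons with chow this rule could only show a fall. Counts over all genes have no such cap in reach, and they moved more. For F0 against chow, 762 higher and 757 lower became 443 and 428 without background correction, 465 and 455 with offset 50, 621 and 951 with median scaling, 756 and 1216 with the value table and 1704 and 1740 at 1.5-fold. For F1 against chow, 840 and 718 became 521 and 414, 547 and 438, 762 and 847, 853 and 1122, and 1767 and 1688 in the same order. For F2 against chow, 1064 and 938 became 699 and 542, 735 and 574, 1054 and 950, 1171 and 1241, and 1886 and 2205. For F2 against F0, 526 and 288 became 296 and 111, 314 and 126, 627 and 197, 781 and 316, and 1238 and 1379. The count of 6 genes past the pooled threshold became 3 with the authors' value table, ranged from 0 to 7 when 1 high fat array was left out (0 without F1, where 1 gene of 11384 passed in limma and 7 of the 9 had an unadjusted p below 0.05), and was 5 or 6 under the other 8 settings. Of 108 pooled values of single genes 91 kept their direction and side of the threshold, 14 lost the call, 2 gained it (both Ccl5) and 1 turned: Ccl8, never past the threshold, had -0.24 without the F2 array (limma, adjusted p = 0.506, range 0.506 to 1) and at most 0.39, without the F0 array. Over all genes 330 rose and 388 fell in the pooled fit, against 144 and 790 with the authors' value table, 570 and 496 without F0, 1 and 0 without F1, and 1569 and 1607 without F2. Of 162 log2 differences of single genes from chow 130 stayed within the technical spread and 32 moved further, mostly those of Ccl2, Ccl3 and Ccl4: for F1 against chow Ccl2 ran from 1.30 to 2.37, Ccl3 from 2.44 to 4.32 and Ccl4 from 3.16 to 4.46, and with the mean of its probes Ccl4 had 2.98 for F2 against chow. Signals near background also limit Ccr2. No paired analysis was possible because each group is 1 array and the labels carry no replicate numbers.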
